A study of Arabidopsis thaliana with 6 samples.

Results

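MYC2 (AT1G32640, on Arabidopsis thaliana chromosome 1) was 1 of 19 RNAs whose structure was probed with dimethyl sulfate (DMS) in leaves, with RNA taken from their nuclei. All positions listed under MYC2 were taken, 317 of the 5550 positions in the series, and 167 of them were A or C, the bases at which DMS is read. The position numbers below count from 1 at the 5′ end of the amplicon, since the genome build behind the reference is not given in the sources used here. The first ATG, at position 3, opened a reading frame of 105 codons that ran to the end of the amplicon, and the other 2 frames held stop codons.

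MYC2 is a basic helix-loop-helix transcription factor and a central regulator of jasmonate responses. Jasmonate hormone leads to the destruction of JAZ repressor proteins, which otherwise hold MYC2 back, and MYC2 then switches on wound, defence and secondary metabolism genes. Its mRNA was probed beside 16 primary microRNA transcripts (pri-miRNAs) and the mRNAs of UBQ4, a polyubiquitin, and MPK3, a stress-activated protein kinase. DMS enters living cells and methylates A and C where the face that forms base pairs is free. An enzyme able to copy past the added methyl group often inserts a wrong base there, so that the share of mismatches at a position reports how open that A or C was. Pairing lowers the share, and so can a bound protein.

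The study asked whether CHR2 (BRAHMA), an ATPase of the SWI/SNF chromatin remodelling complex, alters RNA structure in vivo. There were 2 libraries of chr2 plants treated with DMS, 2 of Col plants treated with DMS, 1 of mock-treated chr2 and 1 of mock-treated Col (titled Col-0). Plants were 3 weeks old and lay in 1% DMS, or in the same buffer with water for the mock, for 30 min under vacuum. RNA came from nuclei, the chr2 allele is not given in the labels, and CHR2 itself was not among the amplicons, so the genotype labels could not be checked against it. Whether the DMS libraries of a genotype came from different plants is not said in the labels, and the p-values below can therefore reflect no more than library-to-library spread, which may be technical. Base calls over MYC2 numbered 14378245 and 25654432 in chr2 DMS, 16073887 and 18069538 in Col DMS, 13046290 in chr2 mock and 22311353 in Col mock, and the lowest coverage of any MYC2 position in any library was 12680 reads. The targets were amplified by PCR and mixed in equal amounts, so depth does not measure how much MYC2 RNA was present, and intervals on read shares cover counting error only.

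The sequences below carry the findings. The first is the stretch of MYC2 over which DMS left a signal, positions 24 to 295, and its capitals mark the 116 A or C positions whose mismatch rate was called above mock in both genotypes. The other 4 are hairpins or stems of the predicted fold, shown because their predicted pairs are set against the rates, and their capitals mark the bases that the stem encloses.
MYC2 positions 24 to 295: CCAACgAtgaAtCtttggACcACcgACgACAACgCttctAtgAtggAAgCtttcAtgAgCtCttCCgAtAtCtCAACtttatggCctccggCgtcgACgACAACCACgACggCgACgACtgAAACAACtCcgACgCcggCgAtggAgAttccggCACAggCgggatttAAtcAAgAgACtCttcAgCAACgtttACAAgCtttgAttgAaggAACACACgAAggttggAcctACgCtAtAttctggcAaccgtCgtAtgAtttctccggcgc
MYC2 hairpin, positions 57 to 73: gcttctaTGAtggaagc
MYC2 stem, positions 113 to 160: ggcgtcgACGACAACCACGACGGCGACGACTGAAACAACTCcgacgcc
MYC2 hairpin, positions 203 to 235: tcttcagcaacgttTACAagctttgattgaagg
MYC2 hairpin, positions 241 to 279: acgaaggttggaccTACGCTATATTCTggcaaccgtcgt

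The first question was where MYC2 took up DMS. The mismatch rate is the percent of A, C, G and T calls that differ from the reference base. Outside positions 24 to 295, the 21 A or C positions averaged 0.0545% and 0.0496% in chr2 DMS and 0.0544% and 0.0553% in Col DMS, beside 0.0571% in chr2 mock and 0.0550% in Col mock. Positions 24 and 295 were the first and last A or C above 3 times the higher mock in all 4 DMS libraries, so the bounds came from these same rates. The 23 nt at the 5′ end and 22 nt at the 3′ end outside them showed mock-level rates in every library. The labels name gene-specific primers for reverse transcription and PCR. To keep such ends out of all 19 amplicons alike, region values below use A and C from position 27 to 291, which leaves 141 in MYC2. All 141 were above 3 times the higher mock in each of the 4 DMS libraries. The same held for 95.4% of the A and C positions of UBQ4, 89.1% of those of MPK3, and 0% to 50.0% of those of the pri-miRNAs, with a median of 6.65%. Some UBQ4 reads may come from other ubiquitin genes of near-identical sequence, so all UBQ4 values are uncertain.

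Averaged over these 141 positions, MYC2 had 2.64% and 2.78% mismatches in chr2 DMS and 2.32% and 2.45% in Col DMS, against 0.0568% in chr2 mock and 0.0567% in Col mock. Every DMS library was thus far above both mocks, with no overlap. Per position, edgeR's quasi-likelihood test on mismatch counts, adjusted by Benjamini-Hochberg over 2597 A or C positions of all amplicons, called DMS above mock at 118 of 165 tested MYC2 positions in chr2 and at 120 in Col. Over all amplicons, MYC2 included, the share called higher was 13.0% in chr2 and 13.2% in Col. The other 2 mRNAs were also called often: UBQ4 at 64.6% of tested positions in chr2 and 65.4% in Col, MPK3 at 32.5% in chr2 and 35% in Col. The share in MYC2 was 71.5% in chr2 and 72.7% in Col. The calls of the 2 genotypes covered mostly the same MYC2 positions: 116 passed in both and 122 in at least 1. The median log2 ratio of DMS over mock at tested MYC2 positions was 5.36 in chr2 and 5.28 in Col, whereas the median over all amplicons was 0.75 in chr2 and 0.74 in Col. With 1 mock library per genotype these calls had few degrees of freedom: without any 1 of the 4 DMS libraries, edgeR called 0 MYC2 positions in either genotype, while 138 to 145 kept an unadjusted p under 0.05. With all 6 libraries, DESeq2 called 145 in chr2 and 144 in Col, beside 38.9% and 38.2% of positions over all amplicons, and limma on log2 rates called 141 in chr2 and 135 in Col, beside 20.3% and 19.4%.

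**Figure D1:**
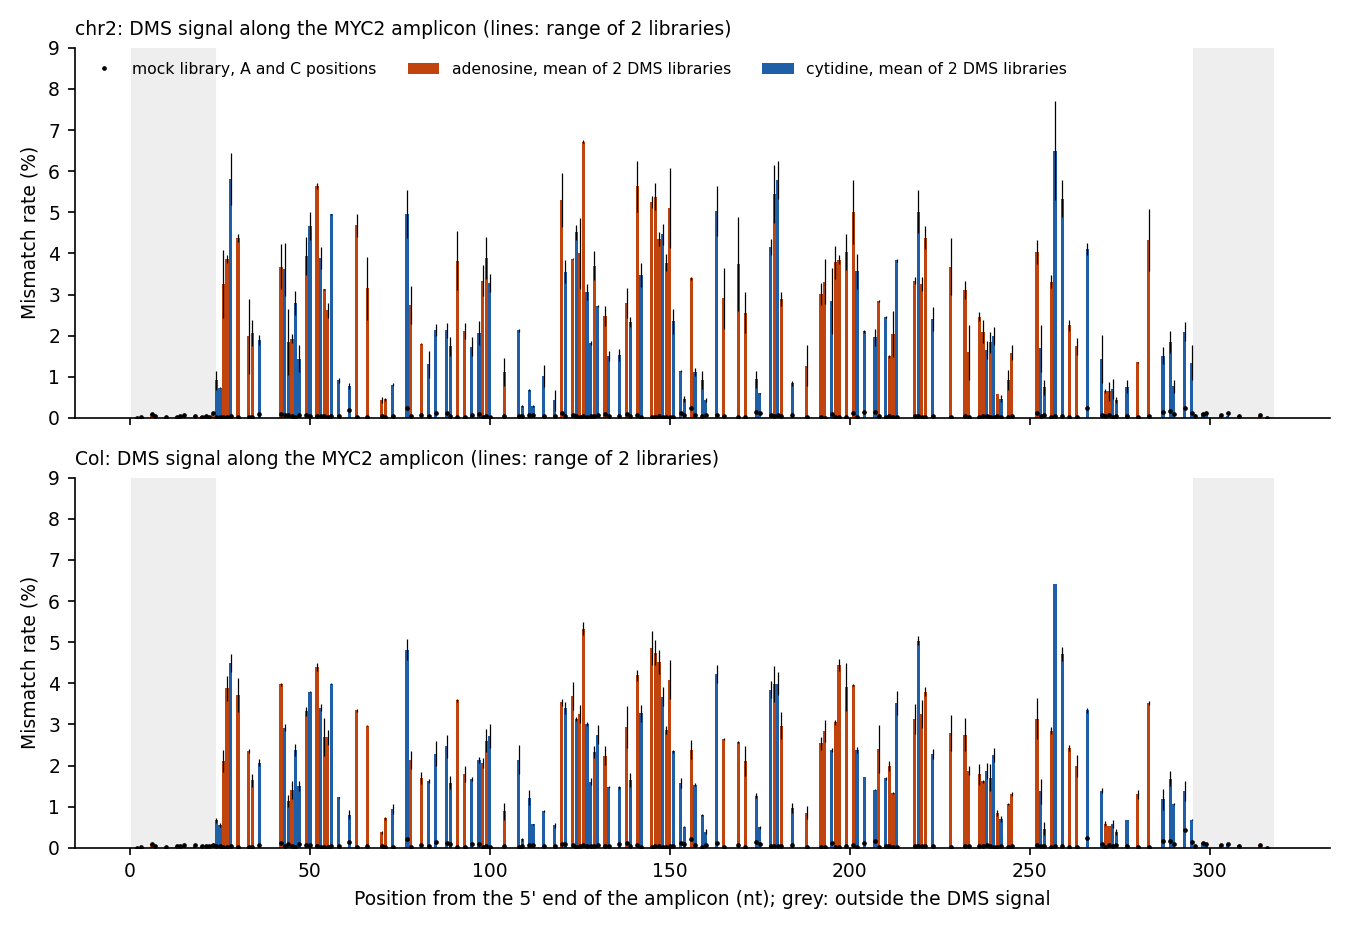
Mismatch rate (%, vertical axis) at each A or C position of the MYC2 amplicon (horizontal axis, nt from the 5′ end), chr2 above and Col below. Bars are means of 2 DMS libraries, lines their range, and black points the mock library of the genotype. Grey ends lie outside positions 24 to 295, where bars stay at the mock level, and the tallest Col bar is the cytidine at position 257.

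The 2 bases reacted to different degrees. The 70 adenosines of MYC2 averaged 3.03% and 3.19% in chr2 DMS and 2.55% and 2.79% in Col DMS, and the 71 cytidines averaged 2.25% and 2.38% in chr2 DMS and 2.10% and 2.11% in Col DMS. Adenosines were higher than cytidines in all 4 DMS libraries, by a ratio of 1.34 ± 0.00417 in chr2 and 1.27 ± 0.0737 in Col (SD, n = 2 each). In the mocks the order was the other way, with a ratio of 0.625 in chr2 and 0.612 in Col. The adenosine calls were also more complete: 65 of 70 adenosines passed the edgeR test in chr2 and 66 in Col, and of the 71 cytidines 50 passed in chr2 and 51 in Col. Between positions 27 and 291, 22 A or C positions passed in neither genotype, and their mean DMS rates lay between 0.247% and 4.89%.

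The wrong bases placed at MYC2 adenosines and cytidines also differed between DMS and mock. At adenosines, 60.6% ± 0.878 of mismatches in chr2 DMS and 60.9% ± 0.978 in Col DMS were read as T (SD, n = 2 each), against 29.4% in chr2 mock and 27.8% in Col mock. Reads of C took 11.5% of adenosine mismatches with DMS in each genotype, against 38.6% in chr2 mock and 36.0% in Col mock. At cytidines, T took 49.0% ± 0.946 in chr2 DMS and 49.1% ± 0.170 in Col DMS, against 73.3% in chr2 mock and 74.7% in Col mock. A cytidine was read as G in 20.7% of mismatches in chr2 DMS and 21.5% in Col DMS, but in 4.74% in chr2 mock and 4.72% in Col mock. The shares of all 4 DMS libraries lay within 3 percentage points of each other for each of these changes.

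G and T positions served as the control. The 63 G positions of MYC2 averaged 0.143% ± 0.00904 in chr2 DMS and 0.138% ± 0.00646 in Col DMS, beside 0.0989% in chr2 mock and 0.0922% in Col mock. The 61 T positions averaged 0.140% ± 0.00369 in chr2 DMS and 0.147% ± 0.0132 in Col DMS, beside 0.0417% in chr2 mock and 0.0397% in Col mock (SD, n = 2 for each DMS group). Both bases were above both mocks in all 4 DMS libraries, at rates far below those of A and C. Of 148 tested G or T positions in MYC2, edgeR called 0 above or below mock in either genotype, and 0.0% were called over all amplicons. At an unadjusted p under 0.05, 22 were higher and 3 lower in chr2, and 25 were higher and 0 lower in Col. DESeq2 called 7 higher in chr2, where it called 1.58% over all amplicons, and 9 higher in Col, beside 1.83%, while limma called 0 in both. The highest of these rates, at the T of position 309 in the 3′ end, was as high without DMS: 2.11% and 1.93% in chr2 DMS, 2.12% and 2.07% in Col DMS, 2.04% in chr2 mock and 2.16% in Col mock. The next T positions, 117 and 297, stayed under 0.6% in every library.

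**Figure D2:**
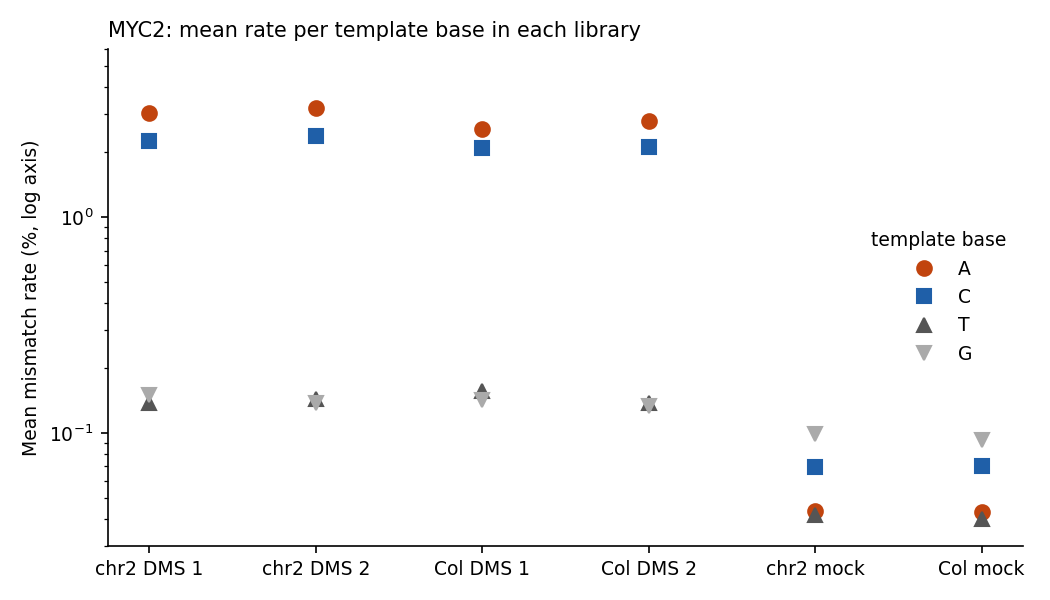
Mean mismatch rate (%, log axis) of MYC2 positions 27 to 291 by template base, 1 point per base and library, with the chr2 and Col DMS libraries left of the mocks. A and C lie above 2% in all 4 DMS libraries and below 0.08% in both mocks, while G and T lie below 0.2% throughout.

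Single positions of MYC2 covered a wide range. The highest mean rate was at the cytidine of position 257, the last base of codon 85, with 7.70% and 5.30% in chr2 DMS and 6.41% and 6.42% in Col DMS, against 0.0501% in chr2 mock and 0.0485% in Col mock. Counting error was small beside that spread, since the 95% Wilson interval of the higher chr2 library ran 7.49% to 7.92% at a coverage of 57830 reads. Its log2 ratio over mock was 7.02 ± 0.94 in chr2 and 7.04 ± 0.94 in Col (SE, edgeR adjusted p = 0.0372 in chr2 and 0.0370 in Col). The adenosine of position 126 followed, with 6.68% and 6.76% in chr2 DMS, 5.49% and 5.17% in Col DMS, 0.0451% in chr2 mock and 0.0653% in Col mock. The other 8 of the 10 highest were positions 28, 146, 145, 219, 259, 52, 141 and 77, and none of the 10 was predicted to be paired. Of these 10, only position 77, a cytidine with raised mocks of 0.240% in chr2 and 0.203% in Col, missed the edgeR threshold (adjusted p = 0.0572 in chr2 and 0.0554 in Col).

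The lowest rate among the 141 was at the cytidine of position 109, with 0.256% and 0.315% in chr2 DMS and 0.176% and 0.239% in Col DMS, still above 0.0482% in chr2 mock and 0.0463% in Col mock. The next lowest were positions 274, 70, 160 and 112. Positions 109, 274, 70 and 160 were predicted to be paired, and position 112 was not. The threshold of the test did not follow the rate of a position alone. In chr2, position 277 (0.595% and 0.912%) was the last to pass with an edgeR adjusted p of 0.0473, and position 47 (1.11% and 1.78%) the first to miss at 0.0504. In Col, position 33 (2.40% and 2.31%) was the last to pass at 0.0497, and position 195 (2.42% and 2.34%) the first to miss at 0.0509. Positions 2 and 316 were not tested for want of mismatches.

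The second question was whether the rates followed a fold of the MYC2 sequence. The minimum free energy fold, predicted at 37 °C from the sequence alone with no probing data, had 86 base pairs and a free energy of −84.6 kcal/mol. Positions share 1 molecule and 1 fold, so values across them describe this amplicon and carry no p. The 74 A or C positions predicted unpaired averaged 3.31% ± 0.0799 in chr2 DMS and 2.90% ± 0.153 in Col DMS, and the 67 predicted paired averaged 2.05% ± 0.122 in chr2 DMS and 1.82% ± 0.0223 in Col DMS (SD, n = 2 libraries). Unpaired positions were higher in all 4 DMS libraries, by a ratio of 1.61 in chr2 and 1.60 in Col. In the mocks that ratio was 0.916 in chr2 and 0.923 in Col, the opposite order.

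The split was sharper for cytidines than for adenosines. Unpaired cytidines of MYC2 averaged 3.16% in chr2 DMS and 2.86% in Col DMS, and paired ones 1.66% in chr2 DMS and 1.52% in Col DMS, a ratio of 1.90 in chr2 and 1.89 in Col. Unpaired adenosines averaged 3.41% in chr2 DMS and 2.93% in Col DMS, and paired ones 2.63% in chr2 DMS and 2.26% in Col DMS, a ratio of 1.30 in chr2 and 1.29 in Col. Paired and unpaired adenosines thus overlapped widely. Of the 74 unpaired A or C positions, 67 passed the edgeR test over mock in chr2 and 70 in Col, and of the 67 paired ones 48 passed in chr2 and 47 in Col.

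**Figure D3:**
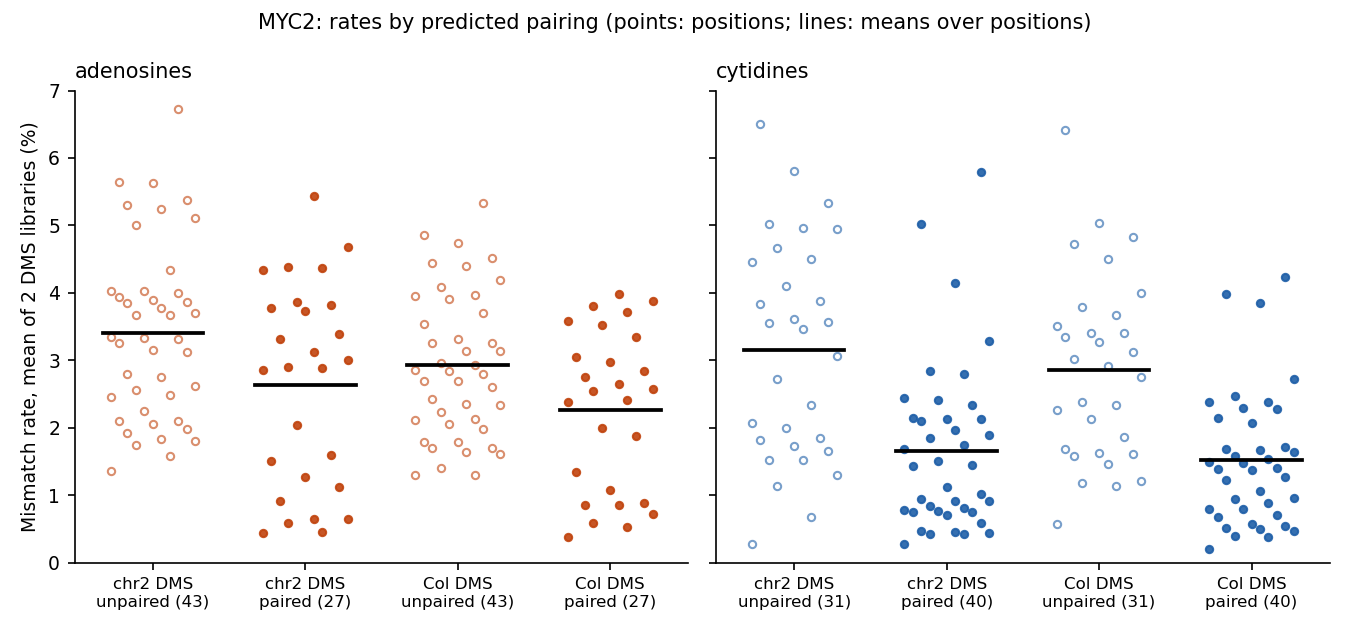
Mismatch rate of MYC2 A (left panel) and C (right panel) positions 27 to 291, mean of 2 DMS libraries (%), by genotype and predicted pairing, with the number of positions in brackets. Points are positions and black lines their means. Paired and unpaired points overlap widely, more for adenosines than for cytidines.

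The area under the receiver operating characteristic curve (AUC), the chance that an unpaired position of MYC2 exceeds a paired one, was 0.734 and 0.728 in chr2 DMS and 0.728 and 0.756 in Col DMS, against 0.457 in chr2 mock and 0.475 in Col mock. The 2 genotypes overlapped, and a two-sided exact permutation test over libraries gave p = 0.667, where 2 against 2 libraries cannot go below 0.333. For cytidines alone the mean AUC was 0.764 in chr2 and 0.792 in Col, and for adenosines alone 0.628 in chr2 and 0.640 in Col. Under the same fold settings UBQ4 reached 0.610 in chr2 and 0.616 in Col, and MPK3 0.617 in chr2 and 0.624 in Col. MYC2 was above UBQ4 and above MPK3 in 4 of 4 DMS libraries (two-sided exact sign-flip test, p = 0.125 for each, the smallest that 4 libraries allow). The order against UBQ4 turned round when positions were split by a pairing probability over 0.5, which gave UBQ4 0.749 in chr2 and 0.748 in Col, and MYC2 0.721 in chr2 and 0.733 in Col.

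The contrast of unpaired and paired bases differed between elements of the fold. In the hairpin of positions 241 to 279, the 6 A or C positions of the loop had 3.99% and 3.75% in chr2 DMS and 3.61% and 3.63% in Col DMS. Its 11 paired ones had 0.702% and 0.942% in chr2 DMS and 0.815% and 0.750% in Col DMS, below the loop in every DMS library. The loop holds position 257, the most reactive of the amplicon, while the pairs hold position 274, 1 of the least reactive. In the stem of positions 113 to 160, the 7 A or C positions of the 2 arms averaged 1.11% ± 0.187 in chr2 DMS and 1.01% ± 0.0918 in Col DMS. The 25 A or C positions that this stem encloses, 23 of them predicted unpaired, averaged 3.63% ± 0.130 in chr2 DMS and 3.12% ± 0.180 in Col DMS (SD, n = 2 each). Of the positions named here, 120, 126, 129, 141, 145 and 146 are among the unpaired ones it encloses. A small hairpin loop inside this stem, positions 135 to 138, held 2 A or C positions. They averaged 2.16% ± 0.356 in chr2 DMS and 2.20% ± 0.387 in Col DMS (SD, n = 2 each), lower than the mean of all the enclosed A or C positions. The stem is the inner part of a longer predicted hairpin of 18 pairs, positions 100 to 170. All 16 paired A or C positions of that hairpin averaged 1.88% ± 0.226 in chr2 DMS and 1.60% ± 0.0208 in Col DMS (SD, n = 2 each). That was higher than the 2 arms of the inner stem, and the highest paired position averaged 4.63% over the 4 DMS libraries.

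The hairpin of positions 15 to 48 reaches into the 5′ end without signal, so its class means could not be compared in this way. Its 2 loop positions averaged 2.03% ± 0.415 in chr2 DMS and 2.00% ± 0.0769 in Col DMS, its 10 other unpaired ones 1.72% ± 0.202 in chr2 DMS and 1.42% ± 0.0267 in Col DMS, and its 9 paired ones 2.15% ± 0.146 in chr2 DMS and 1.88% ± 0.0781 in Col DMS (SD, n = 2 each). The unpaired class outside the loop holds the unpaired A or C of positions 18 to 23, all in the end without signal. Of the paired class, position 15 lies there. The lower mean of that unpaired class therefore does not show how pairing went with the rates, and means without the end were not taken.

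**Figure D4:**
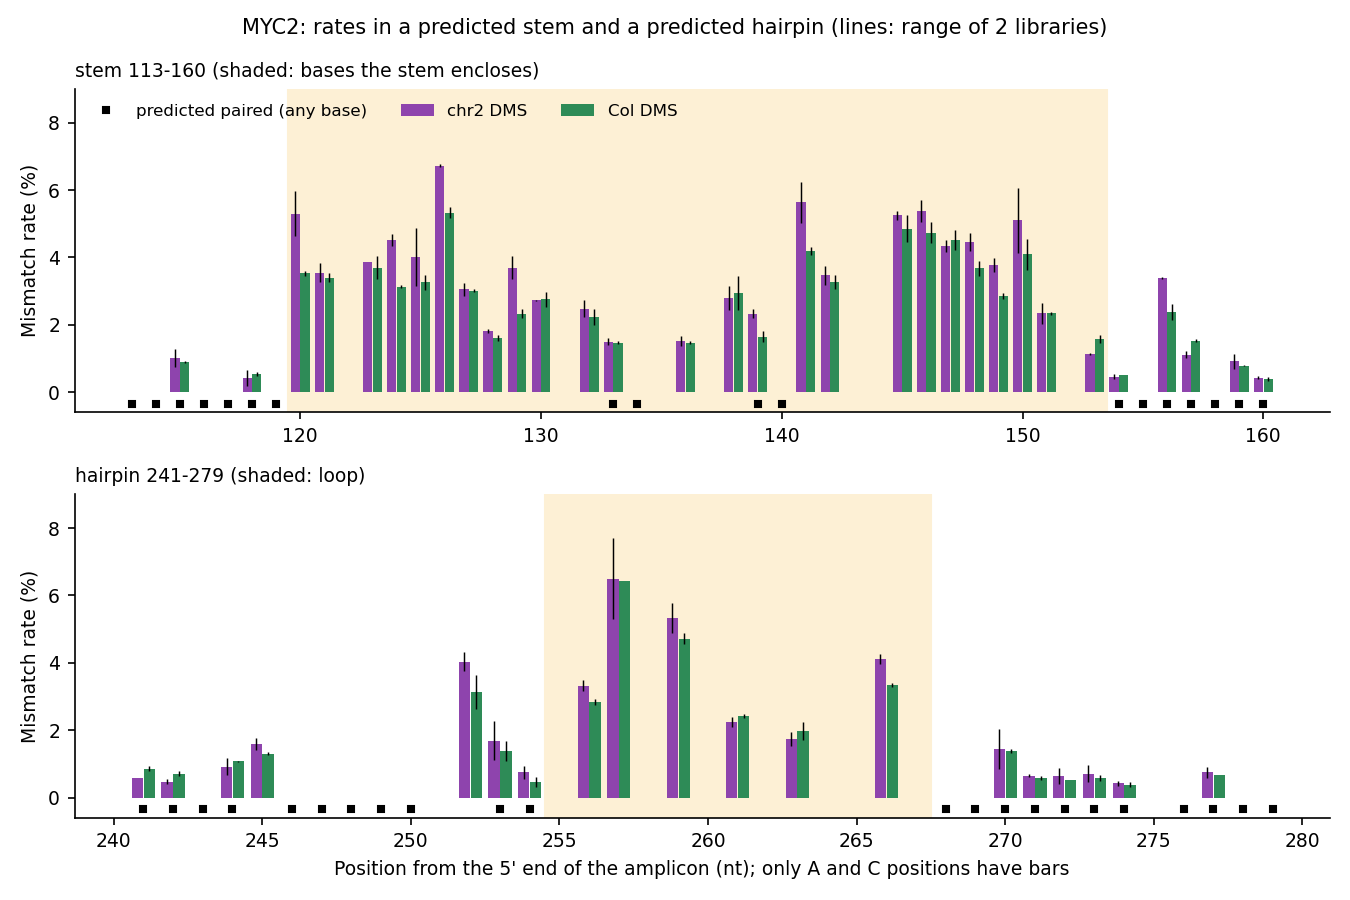
Mismatch rate (%) at the A and C positions of 2 predicted elements of MYC2 (nt from the 5′ end of the amplicon), chr2 DMS bars left of Col DMS bars, with the range of 2 libraries as lines. Black squares mark bases predicted to be paired and shading the bases the stem encloses. In both elements the bars are high over the shaded bases and low over most paired ones.

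The short hairpin of positions 57 to 73 had 6 paired A or C positions, which averaged 1.35% ± 0.000981 in chr2 DMS and 1.24% ± 0.0252 in Col DMS, and a single A in its loop, which averaged 3.15% ± 1.09 in chr2 DMS and 2.97% ± 0.0158 in Col DMS. One of its paired adenosines, at position 63 beside the loop, stood out at 4.40% and 4.95% in chr2 DMS and 3.31% and 3.38% in Col DMS, and was picked after its values were seen. The hairpin of positions 203 to 235 was less distinct. Its 3 loop positions averaged 3.87% ± 0.284 in chr2 DMS and 3.81% ± 0.279 in Col DMS, and its 10 paired positions 2.44% ± 0.0354 in chr2 DMS and 2.13% ± 0.0526 in Col DMS, higher than the paired positions of the other hairpins named.

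Where pairs were predicted over a long distance, the rates were higher. The 19 paired A or C positions whose partner lay more than 80 nt away averaged 2.72% ± 0.151 in chr2 DMS and 2.39% ± 0.0702 in Col DMS, and the 48 with a nearer partner 1.79% ± 0.111 in chr2 DMS and 1.59% ± 0.00334 in Col DMS (SD, n = 2 each). Far partners were also higher within each base: the 8 adenosines averaged 3.48% in chr2 DMS and 2.92% in Col DMS, beside 2.28% in chr2 DMS and 1.99% in Col DMS for the 19 with a nearer partner, and the 11 cytidines averaged 2.16% in chr2 DMS and 2.00% in Col DMS, beside 1.47% in chr2 DMS and 1.33% in Col DMS for the 29 with a nearer one. The longest stretch of bases with far partners was positions 174 to 188, paired with bases between 288 and 307, and its 8 A or C positions were uneven. Positions 178 to 181, its run of 4 adjacent A or C, averaged 4.28% and 4.86% in chr2 DMS and 3.63% and 3.77% in Col DMS, above the mean of unpaired positions in each library. The other 4, positions 174, 175, 184 and 188, averaged 1.08% and 0.746% in chr2 DMS and 0.884% and 0.911% in Col DMS, below the mean of positions with a nearer partner in each library. Without positions 178 to 181 the mean of far-paired positions was 2.23% ± 0.0829 in chr2 DMS and 2.04% ± 0.0617 in Col DMS (SD, n = 2 each). The fold was predicted from the amplicon alone, and partners beyond its ends were not analysed here.

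Along the amplicon, in full windows of 20 nt, the mean A and C rate was highest at positions 247 to 266 in Col, with 3.30% ± 0.00688 in chr2 DMS and 2.97% ± 0.0166 in Col DMS (SD, n = 2 each). In chr2 positions 47 to 66 were as high, at 3.32% ± 0.122. The lowest window in both genotypes was 267 to 286, with 1.29% ± 0.243 in chr2 DMS and 1.12% ± 0.0161 in Col DMS. The base before a cytidine went with its rate. The 27 cytidines after an A averaged 3.31% ± 0.107 in chr2 DMS and 2.89% ± 0.0295 in Col DMS, and the 12 after another C averaged 0.905% ± 0.0646 in chr2 DMS and 0.828% ± 0.0499 in Col DMS. Predicted pairing moved with this contrast, at 33.3% of cytidines after A and 75.0% of those after C, and its part in the result was not tested. Among unpaired cytidines alone, the 18 after A averaged 3.87% in chr2 DMS and 3.43% in Col DMS, and the 3 after C 1.32% in chr2 DMS and 1.11% in Col DMS. Among paired ones, the 9 after A averaged 2.19% in chr2 DMS and 1.82% in Col DMS, and the 9 after C 0.767% in chr2 DMS and 0.734% in Col DMS.

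Within the reading frame, A and C at first codon positions averaged 3.09% in chr2 DMS and 2.65% in Col DMS, at second positions 2.45% in chr2 DMS and 2.21% in Col DMS, and at the last position of the codon 2.67% in chr2 DMS and 2.34% in Col DMS. The predicted paired share moved with this order at 17 of 46 first positions, 37 of 61 second positions and 13 of 34 at the end of the codon, and first positions held 30 adenosines and 16 cytidines while second positions held 22 adenosines and 39 cytidines. Adenosines kept the lead of first positions, with 3.54% in chr2 DMS and 2.97% in Col DMS at first, 2.88% in chr2 DMS and 2.58% in Col DMS at second, and 2.68% in chr2 DMS and 2.29% in Col DMS at last positions. Cytidines did not, and were highest at the last position, with 2.24% in chr2 DMS and 2.07% in Col DMS at first, 2.21% in chr2 DMS and 2.00% in Col DMS at second, and 2.65% in chr2 DMS and 2.40% in Col DMS at last positions. Predicted pairing differed by base too: among adenosines 6 of 30 first, 13 of 22 second and 8 of 18 last positions were paired. Among cytidines these were 11 of 16, 24 of 39 and 5 of 16, so each base was highest where it was least paired. The part of pairing in these orders was not tested.

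The third question was whether the MYC2 profile differed between chr2 and Col plants. No A or C position of MYC2 passed the edgeR test of chr2 DMS against Col DMS: 0 of 165 were called, and 0.0% over all amplicons, with 0 higher and 2 lower at an unadjusted p under 0.05. Both of those, positions 14 and 308, lie in the ends without DMS signal. DESeq2 called 1 MYC2 position lower in chr2, beside 5.74% over all amplicons, and 0 higher, beside 5.98%, and limma called 0. Of the 148 G or T positions edgeR and limma called 0, with 5 higher and 13 lower at an unadjusted p under 0.05 in edgeR, and DESeq2 called 1 higher and 8 lower, beside 3.39% and 4.84% over all amplicons. The test of whether the DMS response over mock differed between genotypes called 0 MYC2 positions by edgeR and limma, with 1 position under an unadjusted p of 0.05 by edgeR, and 0 by DESeq2, which called 0.963% higher and 1.0% lower over all amplicons. Between positions 27 and 291 the smallest p for a lower rate belonged to the cytidine of position 112, with 0.309% and 0.256% in chr2 DMS and 0.588% and 0.563% in Col DMS, a log2 ratio of −1.07 ± 0.46 (SE, edgeR adjusted p = 0.721). The smallest in the other direction was at position 98, an adenosine with 2.96% and 3.72% in chr2 DMS and 1.93% and 2.18% in Col DMS, a log2 ratio of 0.65 ± 0.56 (SE, edgeR adjusted p = 0.952). Both sets of values were apart between genotypes without passing the test. Outside positions 27 to 291, position 295 had a smaller p than position 98 for a higher rate, and positions 305 and 314 smaller p than position 112 for a lower one, while positions 129, 109 and 120 followed position 98 among the higher ones. All 6 had an edgeR adjusted p of at least 0.721.

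The whole profile sat slightly higher in chr2 before scaling. The MYC2 mean over the 141 positions was 2.71% ± 0.100 in chr2 DMS and 2.39% ± 0.0911 in Col DMS (SD, n = 2 each), and both chr2 libraries were above both Col libraries. The ratio was 1.14, with a 95% interval of 0.974 to 1.32 and a limma adjusted p of 0.299 over 19 amplicons. An exact permutation test gave p = 0.333, the smallest that 2 against 2 libraries allow. UBQ4 was higher in chr2 DMS by a like ratio of 1.14 (2.64% ± 0.00959 in chr2 DMS and 2.30% ± 0.0141 in Col DMS), and MPK3 by 1.11 (2.83% ± 0.0591 in chr2 DMS and 2.54% ± 0.0605 in Col DMS). With each library scaled by the rates of these 2 mRNAs, the MYC2 ratio became 1.01, with an interval of 0.867 to 1.17. An overall difference in MYC2 beyond that of the other mRNAs was therefore not detectable, and a ratio of up to 1.17 lies inside the interval.

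**Figure D5:**
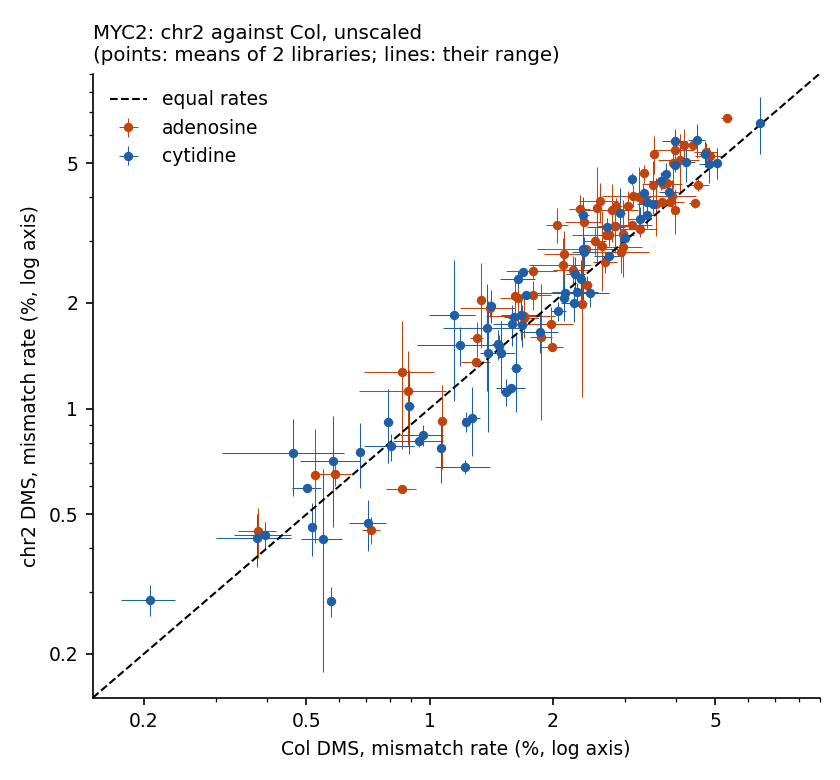
chr2 DMS (vertical axis) against Col DMS (horizontal axis) mismatch rate (%, log axes) of the 141 A and C positions 27 to 291 of MYC2, unscaled. Points are means of 2 libraries, lines their range, and the dashed line marks equal rates. Most points lie near or slightly above the line, and the cytidine of position 112 lies below it.

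Position by position, 43 of the 141 MYC2 positions had both chr2 DMS libraries above both Col DMS libraries, which is 30.5% beside 19.3% over all amplicons, and 12 had both below, 8.51% beside 13.6%. With size factors from the median ratio of all A and C rates the counts were 34 higher, 24.1% beside 17.2% over all amplicons, and 15 lower, 10.6% beside 15.6%. With size factors from UBQ4 and MPK3 they were 21 higher, 14.9% beside 12.1%, and 29 lower, 20.6% beside 21.4%. Among the other mRNAs, UBQ4 had 37.6% higher and 6.42% lower unscaled, and 32.1% higher and 9.17% lower with the median ratio. MPK3 had 17.5% higher and 8.03% lower unscaled, and 17.5% higher and 9.49% lower with the median ratio. UBQ4 thus held a larger share of higher positions than MYC2 in both cases. The surplus of higher MYC2 positions in chr2 depended on the scaling, which moved the median log2 ratio over all amplicons by more than 0.1, to −0.12 with UBQ4 and MPK3 against 0.01 with the median ratio. The median log2 ratio of tested MYC2 positions was 0.10 with the median ratio, 0.15 unscaled and −0.03 with UBQ4 and MPK3.

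The shape of the profile was compared through its unevenness and through the likeness of libraries. The Gini index of MYC2, 0 for equal rates at all positions and nearer 1 for a few dominant ones, was 0.340 and 0.332 in chr2 DMS and 0.307 and 0.307 in Col DMS. Both chr2 libraries were above both Col libraries, and the difference of 0.0294 did not pass (limma adjusted p = 0.711 over 19 amplicons, 95% interval −0.0367 to 0.0955). Over the 141 positions Pearson's r was 0.888 between the chr2 DMS libraries, 0.954 between the Col DMS libraries and 0.902 to 0.933 between a chr2 and a Col DMS library, as a description of points that share a sequence. Libraries of different genotype were thus about as alike as those of 1 genotype. Between a DMS and a mock library r was −0.0787 to −0.0201, and between the 2 mocks 0.924.

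Agreement between replicates is given as a description. They were more than 2-fold apart at 9 of the 141 MYC2 positions in chr2 and at 0 in Col, at 5 of 109 UBQ4 positions in chr2 and 4 in Col, and at 52 of 137 MPK3 positions in chr2 and 40 in Col. The median share in the 16 pri-miRNAs was 38.8% in chr2 and 41.2% in Col, against 6.38% in chr2 and 0% in Col for MYC2, and no pri-miRNA was under 7.34% in chr2. Likeness was also taken from the mean A and C rate over the 6 libraries, mocks included. The 3 amplicons nearest to MYC2 were MPK3 at a distance of 0.226 on the log2 scale, miR156b at 0.540 and miR160a at 0.703. UBQ4 lay at 0.995, with DMS means of 2.64% in chr2 and 2.30% in Col but mocks of 0.0943% in chr2 and 0.0897% in Col. This distance does not measure the shape of a profile. The Gini index of miR156b averaged 0.823 in chr2 DMS and 0.899 in Col DMS, beside 0.336 and 0.307 in MYC2. Only 4.30% of miR156b A and C positions were above 3 times the higher mock in all 4 DMS libraries.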

How the data were processed

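The 6 leaf libraries were made by DMS-MaPseq, which reads DMS methylation as mismatches. The files the authors deposited hold counts per position of 19 amplicons: how often each of the 4 bases was read, beside the reference base, per the file headers. SAMtools 1.5, Picard, BWA and cutadapt appear in the submitters' processing notes without their roles, and the genome build is not given in the sources used here. Repeated header lines inside the files were dropped.

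Coverage was the sum of the 4 counts and the mismatch rate the percent of calls other than the reference base. MYC2 and its gene identifier were matched in a RefSeq table (TAIR10.1) used for names only. Tests took positions of all amplicons covered by 100 or more reads in every library of the fit, with 10 or more mismatches in all and no mock rate over 5%. edgeR 4.0.16 (R 4.3.3, quasi-likelihood test, log coverage as offset, a median-ratio size factor for comparisons of genotypes) was fitted over all of them, with A/C and G/T apart, with all 6 libraries for DMS against mock and the 4 DMS libraries for chr2 against Col. The threshold was an adjusted p of 0.05. DESeq2 1.42.0 and limma 3.58.1 on log2(rate + 0.0001) were alternatives, as were other limits, size factors, each DMS library left out, and a replicate term. The amplicon means and Gini indices were tested with limma over 19 amplicons, single values with exact permutation tests. Folds came from ViennaRNA 2.7.2.

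Region values left out 26 nt at each end. Median MYC2 coverage per position was 45535 and 80130 reads in chr2 DMS, 48333 and 57206 in Col DMS, 38970 in chr2 mock and 66843 in Col mock. Libraries were grouped by their titles. Replicate numbers were not used to pair libraries: same-numbered libraries deviated together with a correlation of only 0.0412 over the MYC2 positions. The amplicon, the position classes and the tests were chosen with earlier results of these data known. Positions named are the 10 with the highest mean DMS rate, the 5 lowest inside the ends and the 3 highest G or T. Also named are the 5 with the smallest p in each direction between genotypes, and those on either side of the threshold. Position 63, the stretch of positions 174 to 188 and the bounds 24 and 295 were picked after their values were seen.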

Additional observations from a re-analysis of the deposited data

Results flagged for a closer look

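At T positions of MYC2 between 27 and 291, bases at which DMS is not read, the mean mismatch rate over the 4 DMS libraries was 0.144%, and each DMS library was above both mocks, which had 0.0417% in chr2 and 0.0397% in Col. At G positions it was 0.141% over the 4 DMS libraries, again above the mocks in each, which had 0.0989% in chr2 and 0.0922% in Col. The wrong bases at T changed as well: G took 36.1% of T mismatches in chr2 DMS and 34.5% in Col DMS, against 22.3% in chr2 mock and 19.4% in Col mock. The cause was not tested.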

How the results depend on the processing

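A coverage minimum of 30 or 1000 reads, no limit on mismatches, a mock limit of 1% or no such limit, other size factors, the primer ends left out, DESeq2 and limma all kept the MYC2 counts of A and C positions above mock within 1.5 times, at 118 to 145 in chr2 and 116 to 144 in Col. With any 1 DMS library left out the edgeR count was 0 in both genotypes. With replicate number as a block (replicate block) it was 0 in chr2 and 0 in Col, with 141 in chr2 and 138 in Col at an unadjusted p under 0.05, and the fit has fewer degrees of freedom by construction. The block changed no other call. For G or T, DESeq2 called 7 MYC2 positions above mock in chr2, 9 in Col, and 9 between genotypes, where edgeR called 0. For A or C between genotypes DESeq2 called 1 where edgeR called 0. The limma ratio of the MYC2 mean, chr2 over Col, was 1.11 to 1.17 with 1 library left out and was called in none. The mean AUC in chr2 moved to 0.721 with a pairing probability over 0.5, 0.753 with a fold at 22 °C, 0.646 with primer ends kept, 0.628 for A only, 0.764 for C only and 0.736 between MYC2's own ends, and in Col to 0.769 at 22 °C, 0.658 with primer ends kept, 0.640 for A only and 0.792 for C only. Leaving out replicate 2 of Col turned the AUC difference, chr2 minus Col, to 0.00303, within −0.0252 to 0.00303 over the 4 libraries left out. Chosen after the data were seen, the A over C ratio in chr2 was 1.35 with primer ends kept, 1.38 between MYC2's own ends and 1.37 with the mock subtracted. The unpaired over paired ratio was 1.51 in chr2 and 1.52 in Col with primer ends kept, and 1.67 in chr2 at 22 °C. The causes were not tested. Neither the depth nor the number of mock libraries was varied.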
